A study of Homo sapiens with 9 samples.

Results

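The SOX transcription factors described here were 10 genes, *SOX2*, *SOX4*, *SOX5*, *SOX6*, *SOX8*, *SOX9*, *SOX11*, *SOX12*, *SOX13* and *SOX18*, of 60708 genes counted. They were taken by gene symbol from a list drawn up with earlier results of these data known, although the rule itself used no measured value. The data were RNA-sequencing counts of read pairs per gene from 9 untreated libraries labelled MDA-MB-231, a human triple-negative breast cancer cell line grown in serum-containing medium. Of these, 3 were labelled WT, 3 came from the *SNAI1*-KO clone CS16 and 3 from the *SNAI1*-KO clone CS19. *SNAI1* encodes the repressor Snail, and it had been targeted with CRISPR/Cas9, after which each KO line was grown as 1 clone. The labels do not say that the 3 libraries of a group came from separate cultures, so p-values measure only the spread between these libraries, which may be technical. In bulk RNA, fewer cells of a type and less RNA per cell cannot be told apart.

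SOX proteins bind DNA through a high-mobility-group (HMG) box related to that of the sex-determining factor SRY, and they bend the DNA they bind. They are sorted into subgroups by the sequence of that box. SOX2 is of subgroup B1 and is known for stem cell and neural progenitor identity. SOX4, SOX11 and SOX12 form subgroup C, which acts in progenitors of many tissues. SOX5, SOX6 and SOX13 form subgroup D, which has no activation domain of its own. SOX8 and SOX9 belong with SOX10 to subgroup E of cartilage, gonad and neural crest, and SOX18 belongs with SOX7 and SOX17 to subgroup F of blood and lymph vessels. In breast epithelium SOX9 is a factor of luminal progenitor cells, and SOX4 is known for its part in mesenchymal transition.

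The libraries held 19527195 to 28627777 counted pairs, and 3 counts, used here as a detection floor, corresponded to 0.0982 to 0.171 CPM (counts scaled to library size, here with TMM factors). Several facts of the whole data set touch every SOX value. The library WT-2 stood apart from the other WT libraries: its counts gave a chi-square, divided by its degrees of freedom, of 188 against WT-1 and 230.2 against WT-3, where WT-1 against WT-3 gave 14.6. Counts of the targeted gene *SNAI1* were 16, 38 and 21 for the label WT, 26, 40 and 49 for CS16, and 57, 94 and 94 for CS19, so its RNA was not lower in the libraries labelled KO. It was called higher in CS19, at a log2 fold change of 1.32 (edgeR adjusted p = 0.031). That call was lost on leaving out any 1 of 4 of the 6 libraries. In CS16 it was not called (0.39, edgeR adjusted p = 0.474), but was without WT-2 (0.88, edgeR adjusted p = 0.0386). A count over the whole gene need not show a partial deletion. *CDKN2A*, *CDKN2B* and *MTAP*, neighbours at 9p21, had 0 counts in every WT library and a summed 168.6 to 175.1 CPM in CS16 and 164.1 to 181.9 CPM in CS19. A list of 10 genes for a breast carcinoma line held *VIM*, *CD44*, *EGFR*, *KRT8*, *KRT18*, *EPCAM* and *GATA3*. It also held *ESR1*, *PGR* and *ERBB2*, the receptors of the triple-negative definition. In WT, *ESR1* had at most 9 counts in a library and *PGR* at most 3. The list summed to 3253 to 3837 CPM in WT, 473 to 495 CPM in CS16 and 470.1 to 504 CPM in CS19. Of its 8 tested genes 7 were called lower in each clone at an edgeR adjusted p below 0.05, as were 28.6% of all genes in CS16 and 26.6% in CS19, and *CD44* had 0 counts in CS16 and at most 2 in CS19. A list of 10 embryonic kidney markers summed to 75.9 to 119.3 CPM in WT, 143.0 to 149.97 CPM in CS16 and 148.7 to 165.9 CPM in CS19. Of its 9 tested genes 5 were higher and 2 lower in CS16, where 27.0% of all genes were higher, and 6 were higher and 2 lower in CS19, where 26.3% were. Without WT-2, 7 were higher and 2 lower in each clone, where 36.4% of all genes were higher in each comparison. *PAX8* of that list had 202 to 452 counts in WT and at most 2 in the clones. *PAX8* and *OSR1*, at most 3 counts in a clone library, passed the filter on low counts through WT and could not be called higher. *LHX1*, *SALL1* and *HOXD11*, at most 1 count in a WT library, passed it through the clones and could not be called lower. The part of these differences between the libraries in the SOX results was not tested. Whether the clones derive from the cells labelled WT was not tested either, and each fold below compares libraries as they are labelled.

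Expression of the SOX genes differed between WT and each clone, with *SOX9* and *SOX13* lower in both clones and *SOX2*, *SOX4*, *SOX5*, *SOX6*, *SOX8* and *SOX18* higher in both. *SOX12* was not called in either comparison, and *SOX11* had 0 counts in all 9 libraries. A gene was called at a Benjamini-Hochberg adjusted p below 0.05 in edgeR's quasi-likelihood test, with adjustment over all genes tested. In CS16 against WT, 9 of the 10 members passed the filter on low counts, of which 6 were called higher and 2 lower. *SOX2*, *SOX5*, *SOX8* and *SOX18*, at 12 counts or fewer in each WT library, passed that filter only through the clones. Once tested, in either clone, they could be called higher or not called, but hardly lower. The members' counts and median given here carry this limit. Of all 18611 genes tested in that comparison, 27.0% were called higher and 28.6% lower. In CS19 against WT the members' counts were also 6 higher and 2 lower of 9, beside 26.3% higher and 26.6% lower of 18935 genes. With a further limit on size, a log2 fold change of 2 or more up or down, which the study used, 7 members passed in each clone, *SOX4* falling short, where 27.1% and 26.4% of all genes passed. The median log2 fold change of the 9 members was 2.69 in CS16 and 2.87 in CS19, beside -0.03 and 0.00 over all genes tested. Both comparisons used the same 3 WT libraries, so they are not separate evidence, and the values of each are given side by side.

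**Figure D1:**
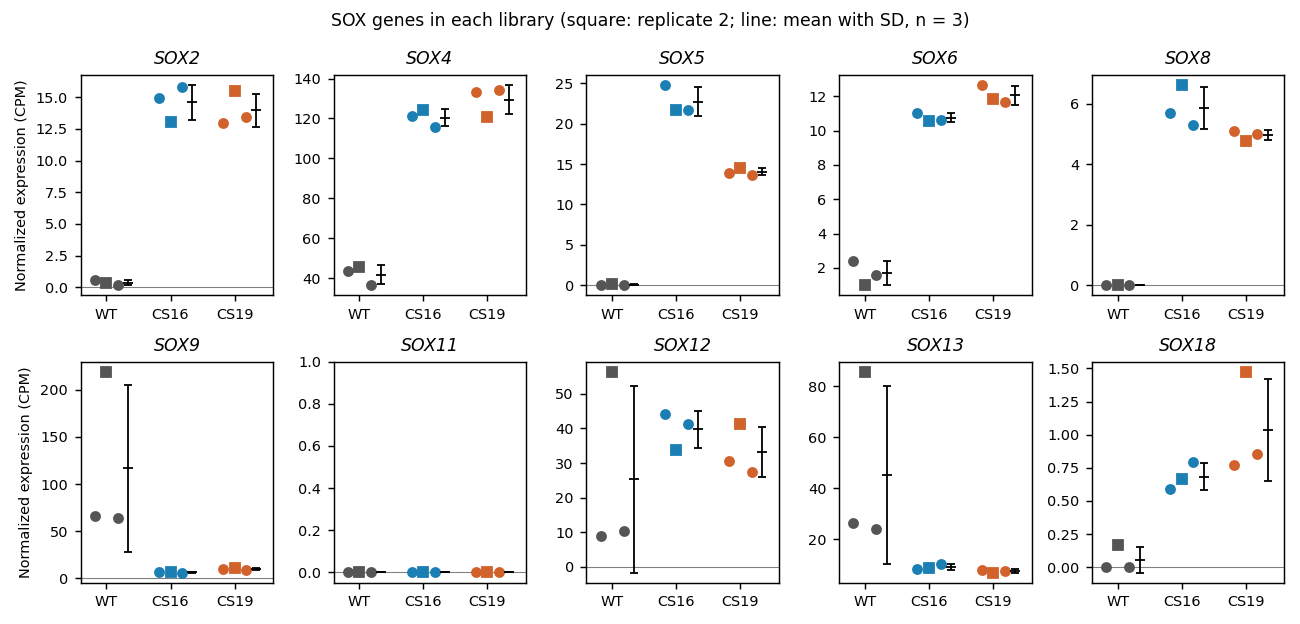
Expression of the 10 SOX genes in each of the 9 libraries, in TMM-normalized CPM on the vertical axis, which does not start at 0 in every panel, with 3 points for each of WT, CS16 and CS19 (a square for replicate 2) and a line for the mean and SD (n = 3). *SOX9*, *SOX12* and *SOX13* show the point of WT-2 far above the other WT points, at 219, 56.4 and 85.6 CPM.

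*SOX2*, the subgroup B1 factor of pluripotent and neural progenitor cells, is a gene of 1 exon on the plus strand at chr3:181711925-181714436 (GRCh38), inside an intron of the long noncoding RNA gene *SOX2-OT*. It was at 0.592, 0.342 and 0.154 CPM in WT, 15.0, 13.1 and 15.8 CPM in CS16, and 13.0, 15.5 and 13.4 CPM in CS19. All clone libraries lay far above all WT libraries, and the clones overlapped each other. The WT values rested on 12, 6 and 3 counts, the last at the floor, against 274 to 410 counts in the clones. The log2 fold change was 5.33 ± 0.43 (SE, n = 3 and 3) in CS16 against WT (edgeR adjusted p = 5e-05) and 5.27 ± 0.42 in CS19 against WT (edgeR adjusted p = 4.35e-05). *SOX2-OT* had only 2 to 13 counts in any library.

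The promoters of *SOX2* and *SOX12* both held the letters ATGCAAA, the core of the octamer motif that POU factors bind beside SOX2, and that of *SOX5* held AACAAT, a core of the motif that SOX proteins bind. They are shown because *POU3F2* and several SOX genes were among the genes that rose in the clones. The windows ran from 250 bases before to 50 bases after a transcription start (RefSeq, GRCh38.p14), and only the 250 bases before the start are printed, 5′ to 3′ on the gene's strand. Capitals mark a motif on either strand, where ATTGTT is AACAAT read on the opposite strand and TGTTTAC is a core of the forkhead motif. The printed stretches are chr3:181711675-181711924 on the plus strand for *SOX2*, chr20:325302-325551 on the plus strand for *SOX12* and chr12:24562492-24562741 on the minus strand for *SOX5*.
SOX2: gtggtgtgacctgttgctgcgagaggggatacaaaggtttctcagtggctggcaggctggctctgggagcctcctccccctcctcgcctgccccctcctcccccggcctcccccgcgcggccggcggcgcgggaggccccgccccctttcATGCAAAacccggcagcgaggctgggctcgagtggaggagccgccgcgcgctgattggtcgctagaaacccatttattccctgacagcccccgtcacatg
SOX12: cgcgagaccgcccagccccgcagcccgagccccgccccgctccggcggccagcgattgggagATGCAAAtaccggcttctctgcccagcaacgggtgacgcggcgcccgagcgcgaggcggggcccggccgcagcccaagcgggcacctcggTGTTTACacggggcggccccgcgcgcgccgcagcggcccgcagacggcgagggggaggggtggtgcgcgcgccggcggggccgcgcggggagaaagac
SOX5: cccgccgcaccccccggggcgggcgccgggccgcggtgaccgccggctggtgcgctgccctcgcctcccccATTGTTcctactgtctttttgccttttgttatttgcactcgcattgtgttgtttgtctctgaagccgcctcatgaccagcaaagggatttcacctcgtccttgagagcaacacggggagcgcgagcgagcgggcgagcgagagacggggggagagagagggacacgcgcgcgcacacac
ATGCAAA lay 100 bases before the start of *SOX2* and 188 bases before that of *SOX12*, and 4.46% of all 35116 promoter windows held it on either strand. AACAAT lay 179 bases before the start of *SOX5*, and in 3 of 5 windows of *SOX6*, where 10.1% of all windows held it. TGTTTAC was found in the window of *SOX12* and in 1 window of *SOX6*, and in 3.42% of all windows. CAGGTG, the E-box that Snail binds, was in none of the 10 windows of 6 members, where 20.6% of all windows held it. These are matches of letters and say nothing of whether a factor was bound. The GC content was 80.3% in the *SOX12* window, 63.3% in that of *SOX2* and 63.7% in that of *SOX5*, beside a median of 58.7% over all windows.

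In subgroup C, *SOX4* rose and *SOX12* depended on 1 WT library. *SOX4*, a gene of 1 exon at chr6:21593751-21598619 on the plus strand, was at 43.4, 45.6 and 36.4 CPM in WT, 121.1, 124.2 and 115.9 CPM in CS16, and 133.1, 120.9 and 134.5 CPM in CS19. Each clone library was above each WT library, with little spread inside any group. The log2 fold change was 1.55 ± 0.17 in CS16 (edgeR adjusted p = 0.000245) and 1.67 ± 0.18 in CS19 (edgeR adjusted p = 0.000188). Of its exon, 168 bases (3.45%) overlapped an annotated gene on the opposite strand, and the counting did not use strand. *SOX11*, the neuronal subgroup C gene at chr2:5692384-5701385, was not detectable at this depth in any library, which allows at most the floor of 3 counts a library.

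*SOX12*, a gene of 1 exon at chr20:325552-330224 on the plus strand, was at 8.93, 56.4 and 10.5 CPM in WT, 44.2, 33.7 and 41.4 CPM in CS16, and 30.7, 41.4 and 27.6 CPM in CS19. WT-2 lay above every clone library and the other WT libraries lay below every one, so the groups overlapped. Its log2 fold change was 0.68 ± 0.68 in CS16 (edgeR adjusted p = 0.424) and 0.43 ± 0.68 in CS19 (edgeR adjusted p = 0.622). Without WT-2 it was 2.03 ± 0.15 in CS16 (edgeR adjusted p = 7.25e-09) and 1.79 ± 0.16 in CS19 (edgeR adjusted p = 1.13e-08), and the gene was called higher in both.

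In subgroup D, *SOX5* and *SOX6* rose and *SOX13* fell. *SOX5*, at chr12:23529504-24562544 on the minus strand, is a factor of cartilage and neuronal development. It had 0, 2 and 0 counts in WT, 507, 455 and 545 in CS16 and 307, 335 and 417 in CS19. In CPM the clones stood at 24.9, 21.7 and 21.7 (CS16) and 14.0, 14.5 and 13.6 (CS19), with no overlap between them. A fold against so few WT counts is imprecise. The ratio of CS16 to WT was 649 with an exact 95% counting interval of 179 to 5366 (edgeR adjusted p = 2.1e-05), and that of CS19 to WT was 401 with an interval of 110.8 to 3317 (edgeR adjusted p = 2.62e-05). These intervals cover counting error only, and every WT count of *SOX5* came from WT-2.

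*SOX6*, the partner of SOX5 in cartilage and a factor of red cell and muscle development, lies at chr11:15966449-16739591 on the minus strand. Its level was 2.42, 1.03 and 1.59 CPM in WT, 11.0, 10.5 and 10.6 CPM in CS16, and 12.7, 11.8 and 11.7 CPM in CS19. WT-2 had the lowest value, and all clone libraries were above all WT libraries. Relative to WT it rose on the log2 scale by 2.69 ± 0.33 in CS16 (edgeR adjusted p = 0.000401) and 2.87 ± 0.33 in CS19 (edgeR adjusted p = 0.000265).

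*SOX13*, at chr1:204073115-204127743 on the plus strand, is the subgroup D gene first known as a diabetes autoantigen, and acts in some T cells. It ran the other way, at 26.2, 85.6 and 24.1 CPM in WT, 8.14, 8.50 and 10.4 CPM in CS16, and 8.04, 6.81 and 7.63 CPM in CS19. The lowest WT library was above the highest clone library. The log2 fold change was -2.30 ± 0.52 in CS16 (edgeR adjusted p = 0.00718) and -2.56 ± 0.52 in CS19 (edgeR adjusted p = 0.0042). WT-2 was 3.40 times the mean of the other WT libraries, and without it the change was -1.48 in CS16 (edgeR adjusted p = 1.36e-07) and -1.73 in CS19 (edgeR adjusted p = 7.72e-10).

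In subgroup E, *SOX9* fell and *SOX8* was detected in the clones alone. *SOX9*, at chr17:72121020-72126416 on the plus strand, is the factor of cartilage and testis development. It was at 66.7, 219 and 64.2 CPM in WT, 6.77, 6.78 and 6.05 CPM in CS16, and 9.50, 11.1 and 8.51 CPM in CS19. The 3 groups did not overlap. On the log2 scale it changed by -4.13 ± 0.55 in CS16 (edgeR adjusted p = 0.000556) and -3.56 ± 0.53 in CS19 (edgeR adjusted p = 0.000963). WT-2 was 3.35 times the mean of the other WT libraries, and without it the change was -3.33 in CS16 (edgeR adjusted p = 1.18e-12) and -2.74 in CS19 (edgeR adjusted p = 2e-13). The antisense gene *SOX9-AS1*, with 17 to 43 counts in WT and 6 to 20 in the clones, gave a log2 fold change of -2.03 in CS16 (edgeR adjusted p = 0.00882) and -1.02 in CS19 (edgeR adjusted p = 0.0622), where it was called without WT-2 (edgeR adjusted p = 0.0365) or WT-3 (edgeR adjusted p = 0.0173).

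*SOX8*, a gene of gonad and glial development at chr16:981770-986979 on the plus strand, had 0 counts in every WT library, and its counts over the 3 libraries summed to 388 in CS16 and 375 in CS19. By library the level was 5.69, 6.63 and 5.29 in CS16 and 5.09, 4.77 and 5.01 CPM in CS19. Set against a floor of 3 counts for each WT library, *SOX8* was at least 37.2-fold higher in CS16 (edgeR adjusted p = 8.42e-05) and at least 31.4-fold higher in CS19 (edgeR adjusted p = 7.22e-05).

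*SOX18*, the subgroup F factor of lymphatic vessels at chr20:64047582-64049639 on the minus strand, was the lowest detected member in both clones. It had 0, 3 and 0 counts in WT, 12, 14 and 20 in CS16, and 17, 34 and 26 in CS19. The counts of the clones were low but above every WT library, and all WT counts came from WT-2. The ratio to WT was 13.2 in CS16 with a counting interval of 4.25 to 66.4 (edgeR adjusted p = 0.00859), and 19.4 in CS19 with an interval of 6.41 to 96.3 (edgeR adjusted p = 0.00458).

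**Figure D2:**
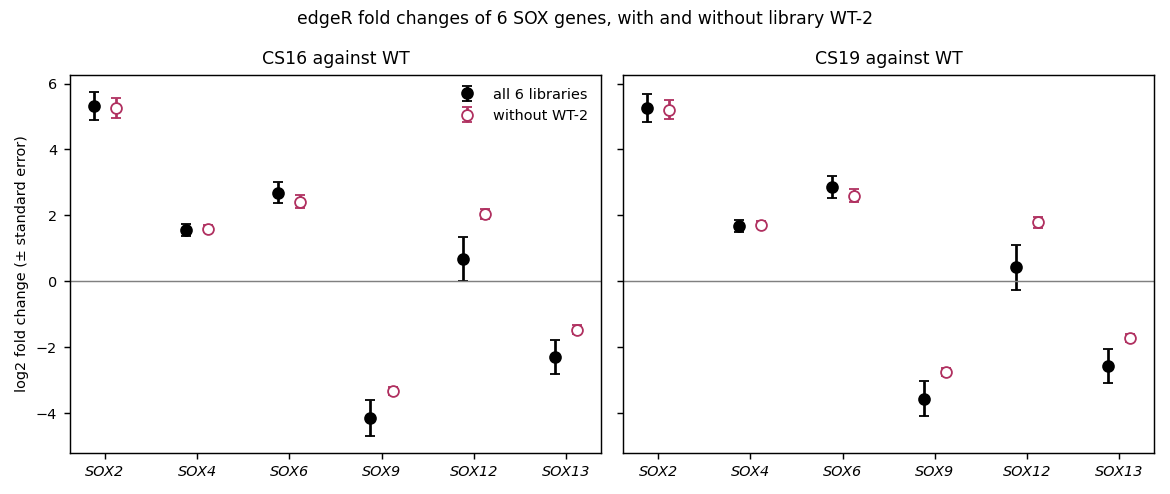
The log2 fold change of *SOX2*, *SOX4*, *SOX6*, *SOX9*, *SOX12* and *SOX13* in CS16 and CS19 against WT, the members with over 3 counts in WT, with all 3 WT libraries and with WT-2 left out, with bars for the SE. Of the 6 genes plotted *SOX12* moves most, from 0.68 to 2.03 in CS16 and from 0.43 to 1.79 in CS19, and *SOX9* stays below 0 either way.

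Without WT-2, *SOX12* joined the members called higher, so that 7 members were higher and 2 lower in each clone, where 36.4% of genes were called higher in each comparison and 36.3% and 34.8% were called lower. With the fold limit as well, 7 members passed in CS16 and 6 in CS19, beside 26.7% and 26.1% of all genes. *SOX13* then no longer passed the fold limit in either clone. The limit from the filter on *SOX2*, *SOX5*, *SOX8* and *SOX18* holds for these counts too.

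Levels of different genes were compared as CPM per kb of exon. The length counts all annotated exons of a gene, 11062 bases in 31 blocks for *SOX5* and 20093 in 38 for *SOX6*, but 3931 in 3 for *SOX9*. Where the transcripts made are shorter than this, the level per kb is understated. In WT *SOX9* stood first at 29.7 ± 22.6 CPM per kb (SD, n = 3), and WT-1 and WT-3 alone averaged 16.7. *SOX4* followed at 8.59 ± 0.991, *SOX13* at 6.11 ± 4.71 and *SOX12* at 5.40 ± 5.77 CPM per kb, and the ranges of these 3 over the libraries overlapped. *SOX2* came next at 0.144 ± 0.0874 CPM per kb, with *SOX6* at 0.0835 ± 0.0348, and these overlapped. The remaining members were at or under the floor in WT. The order in the clones was another one. *SOX4* led with 24.7 ± 0.855 CPM per kb in CS16 and 26.6 ± 1.54 in CS19. *SOX12* was next in both, at 8.51 ± 1.16 and 7.11 ± 1.55 CPM per kb, and in CS19 it overlapped *SOX2*. *SOX2* was at 5.82 ± 0.554 and 5.56 ± 0.529 CPM per kb.

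Below these, *SOX5* was above *SOX9* in CS16, at 2.06 ± 0.165 against 1.66 ± 0.106 CPM per kb, and below it in CS19, at 1.27 ± 0.0403 against 2.46 ± 0.327 CPM per kb. *SOX8* was at 1.31 ± 0.154 and 1.11 ± 0.0372 CPM per kb and overlapped *SOX13*, at 1.22 ± 0.166 and 1.01 ± 0.0847 CPM per kb, in both clones. *SOX6* was at 0.534 ± 0.0129 and 0.600 ± 0.0272 CPM per kb, and *SOX18* was at 0.367 ± 0.0562 and 0.555 ± 0.206 CPM per kb, with overlap in CS19. The places of *SOX5* and *SOX6* depend on their exon lengths. In CPM without length, *SOX5* was above *SOX9* in CS19 too, at means of 14.0 against 9.69. The order is a description of 3 libraries a group and carries no test.

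**Figure D3:**
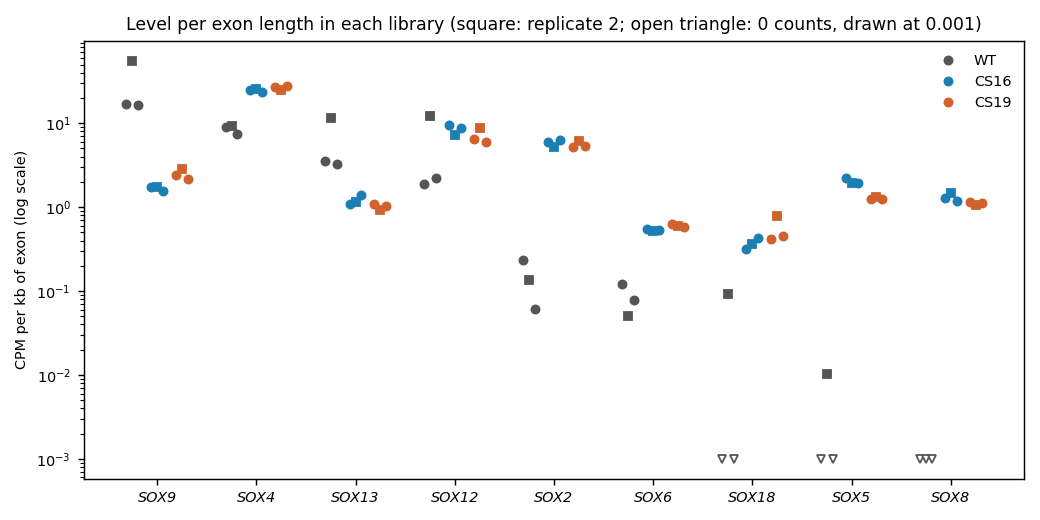
Level of each of 9 SOX genes in CPM per kb of exon on a log axis, with 1 point per library, a square for replicate 2, and open triangles for libraries with 0 counts. *SOX9* is highest in WT, with a mean of 29.7, and *SOX4* is highest in CS16 and CS19, with means of 24.7 and 26.6.

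Between the clones, *SOX5* was higher and *SOX9* lower in CS16 than in CS19, and no other member was called. The 2 calls were 1 higher and 1 lower of 9 tested members, beside 14.7% higher and 12.7% lower of all 17538 genes tested, and no member passed the fold limit, which 1.13% of all genes passed. The members' median log2 difference (CS16 minus CS19) was 0.06, beside -0.02 over all genes. *SOX5* differed by 0.69 ± 0.09 on the log2 scale (edgeR adjusted p = 9.33e-05), and *SOX9* by -0.57 ± 0.13 (edgeR adjusted p = 0.00474), both with no overlap between the libraries of the clones. In 1 fit that shared its spread estimate with the WT libraries, neither was called (*SOX5* edgeR adjusted p = 0.218, *SOX9* edgeR adjusted p = 0.684).

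The libraries of the clones also did not overlap for *SOX6* (-0.17 ± 0.10, edgeR adjusted p = 0.231), *SOX8* (0.24 ± 0.14, edgeR adjusted p = 0.25) and *SOX13* (0.27 ± 0.13, edgeR adjusted p = 0.164), which were not called. The share of all genes without such overlap was not counted, so nothing particular to these members is read from it. *SOX2* differed by 0.06 ± 0.11 (edgeR adjusted p = 0.714) and *SOX4* by -0.11 ± 0.07 (edgeR adjusted p = 0.255), both with overlap. *SOX12* differed by 0.26 ± 0.14 (edgeR adjusted p = 0.187) and *SOX18* by -0.57 ± 0.34 (edgeR adjusted p = 0.241), also with overlap. *SOX12* was called at 0.37 without CS16-2 (edgeR adjusted p = 0.0255) and at 0.45 without CS19-2 (edgeR adjusted p = 0.00688).

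**Figure D4:**
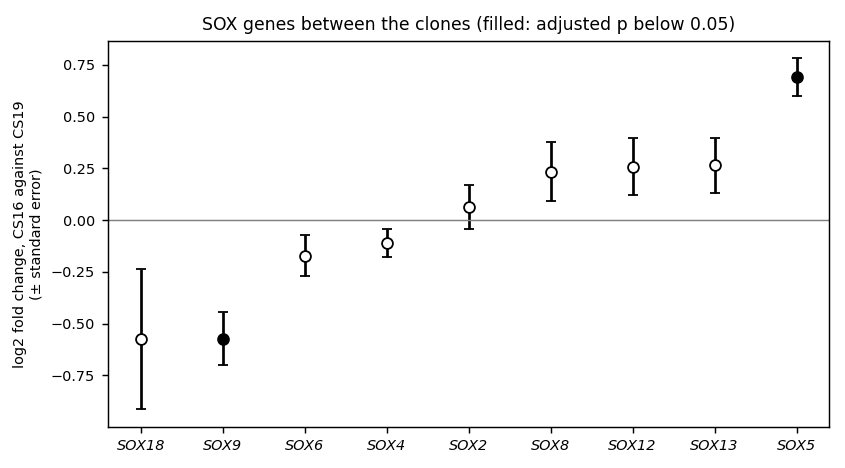
Log2 difference of each tested SOX gene between the clones (CS16 minus CS19), with bars for the SE and filled points for adjusted p below 0.05. *SOX5* lies at 0.69 and *SOX9* at -0.57, and the other members lie nearer 0 or have wider bars.

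Of 9 other SOX genes, 4 were tested against WT. *SOX21*, a subgroup B2 factor of neural progenitors, had 0, 2 and 1 counts in WT, 27, 24 and 26 in CS16, and 130, 131 and 175 in CS19. Its ratio to WT was 22.1 in CS16, with a counting interval of 7.29 to 109.6 (edgeR adjusted p = 0.000777), and 110.1 in CS19, with an interval of 37.4 to 536 (edgeR adjusted p = 4.27e-05). Of the 3 WT counts 2 came from WT-2. The clones differed in it by -2.31 on the log2 scale (edgeR adjusted p = 1.21e-06). *SOX7*, the subgroup F relative of SOX18, gave 2.04 in CS16 (edgeR adjusted p = 0.0136) and 2.47 in CS19 (edgeR adjusted p = 0.00496), but 39.4% of its exon bases overlap *PINX1*, so its counts are uncertain. Without WT-2 it gave 2.81 and 3.26, and in CS16 it was not called without CS16-2 (edgeR adjusted p = 0.0522). *SOX15* gave -0.99 in CS16 (edgeR adjusted p = 0.0582) and -1.32 in CS19 (edgeR adjusted p = 0.0153), and *SOX10*, the neural crest member of subgroup E, gave -1.45 (edgeR adjusted p = 0.0614) and -0.89 (edgeR adjusted p = 0.341). The call of *SOX15* in CS19 was lost without any 1 of the CS19 libraries (edgeR adjusted p = 0.0546 to 0.0635), it was called in CS16 without WT-3 (edgeR adjusted p = 0.0347), and *SOX10* was called in CS19 without CS19-1 (-2.10, edgeR adjusted p = 0.0374). Of the rest, *SOX3* had at most 8 counts in a library, *SOX30* at most 5, and *SOX1*, *SOX14* and *SOX17* had 1 count each in all.

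Genes that SOX factors act with or on were counted in 5 lists. Their counts stand beside 27.0% higher and 28.6% lower of all genes tested in CS16, and 26.3% higher and 26.6% lower in CS19. A gene near the floor in WT passed the filter on low counts only through a clone, so once tested it could hardly be called lower. For a gene near the floor in a clone the reverse holds. The genes tested can thus differ between the clones. Of 15 partners of SOX2 and genes of pluripotent or neural progenitor cells, 6 were tested in CS16, with 3 higher and 3 lower, and 7 in CS19, with 4 higher and 2 lower. Their median log2 fold change was 2.37 and 5.12. These medians are of different sets: *SALL4*, with 0, 0 and 1 counts in WT, was tested in CS19 alone. The CS19 median is its own value (edgeR adjusted p = 0.00209), so the medians do not compare the clones. *POU3F2*, a POU factor of neural progenitors, rose by 6.996 in CS16 (edgeR adjusted p = 7.82e-06) and 7.09 in CS19 (edgeR adjusted p = 5.8e-06). *LIN28B*, which blocks let-7 maturation, had 0 counts in WT and was at least 1463-fold higher in CS16 (edgeR adjusted p = 7.44e-06) and at least 843-fold higher in CS19 (edgeR adjusted p = 7.74e-06). *PAX6*, an eye and brain factor, rose by 5.96 in CS16 (edgeR adjusted p = 0.000143) and 6.16 in CS19 (edgeR adjusted p = 0.000109), and by 7.28 and 7.50 without WT-2, which held 11 of its 15 WT counts. *NES*, the intermediate filament nestin of neural progenitors, went the other way and fell by 3.85 in CS16 (edgeR adjusted p = 2e-05) and fell by 4.30 in CS19 (edgeR adjusted p = 1.34e-05).

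Of 13 cartilage genes that SOX9 activates with SOX5 and SOX6, 8 were tested in CS16, with 3 higher and 2 lower, and 9 in CS19, with 4 higher and 3 lower. The median was 0.54 and 0.49 on the log2 scale. *ACAN*, the proteoglycan aggrecan, rose at a ratio of 50.8 with an interval of 13.8 to 425 in CS16 (edgeR adjusted p = 0.00015) and of 18.2 with an interval of 4.77 to 154 in CS19 (edgeR adjusted p = 0.00177). *COMP*, a cartilage matrix protein, had 8 counts in WT, all in WT-2, and 82 in CS16 (edgeR adjusted p = 0.0262) and 68 in CS19 (edgeR adjusted p = 0.0497). Its call was lost on leaving out any 1 of 4 of the 6 libraries in CS16 against WT and of 5 of the 6 in CS19 against WT. *MATN1*, the cartilage protein matrilin-1, rose by 2.86 in CS16 (edgeR adjusted p = 0.0107) and 3.20 in CS19 (edgeR adjusted p = 0.0067), from 7 WT counts, and by 3.99 and 4.34 without WT-3. *COL9A2*, a collagen IX chain, fell by 2.92 in CS16 (edgeR adjusted p = 0.00424) and fell by 2.98 in CS19 (edgeR adjusted p = 0.00309). Without WT-2 the values of *COL9A2* were -2.15 and -2.18.

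Of 5 targets of SOX4 and SOX11, 4 were tested and 2 were lower in each clone, with a median of -1.83 in CS16 and -1.71 in CS19. They were *MAP2*, a neuronal microtubule protein, at -5.07 and -4.93 (edgeR adjusted p = 0.00016 and 9.85e-05), and *TUBB3*, a neuronal tubulin, at -3.45 and -3.43 (edgeR adjusted p = 0.00256 and 0.00125). Both rested on few clone counts: *MAP2* was at -6.09 without CS16-1 and -5.69 without CS19-2, and *TUBB3* at -4.04 without CS16-2 and -4.06 without CS19-1. Of 11 endothelial targets of SOX18 and its relatives, 10 were tested, with 2 higher and 6 lower in each clone and a median of -1.55 and -1.44. *FLT4*, the lymphatic receptor VEGFR3, rose at a ratio of 958 with an interval of 327 to 4647 in CS16 (edgeR adjusted p = 4.18e-06) and of 892 with an interval of 305 to 4329 in CS19 (edgeR adjusted p = 3.59e-06). *VCAM1*, an adhesion molecule, was lower at a ratio of 305 with an interval of 84.1 to 2527 in CS16 (edgeR adjusted p = 9.17e-05) and of 694 with an interval of 124 to 27477 in CS19 (edgeR adjusted p = 2.74e-05). *ROBO4*, an endothelial guidance receptor, fell by 7.97 in CS16 (edgeR adjusted p = 0.000343) and fell by 6.80 in CS19 (edgeR adjusted p = 0.000458). Without WT-2 the values of *ROBO4* were -6.92 and -5.77, and without CS16-1 it was at -8.65 in CS16. The clone counts of *VCAM1* were 2, both in CS16-2, and 1, in CS19-3.

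Of 10 glial and neural crest genes of the SOX8, SOX9 and SOX10 group, 8 were tested, with 4 higher and 3 lower in CS16 and 4 of each in CS19. The median was 1.41 and 1.27. *MBP*, a myelin protein, fell by 7.89 in CS16 (edgeR adjusted p = 4.18e-06) and fell by 8.27 in CS19 (edgeR adjusted p = 3.59e-06). *RET*, the receptor of glial-derived growth factors, rose at a ratio of 129 with an interval of 43.7 to 626 in CS16 (edgeR adjusted p = 0.000136) and of 81.8 with an interval of 27.7 to 399 in CS19 (edgeR adjusted p = 0.000236), its 3 WT counts all being in WT-1. *PDGFRA*, a receptor of oligodendrocyte progenitors, rested on 1 WT count, in WT-2, and 101 and 212 counts in CS16 and CS19 (edgeR adjusted p = 0.000255 and 7.93e-05). *FOXD3*, a neural crest factor, rose by 2.90 in CS16 (edgeR adjusted p = 0.000673) and 4.07 in CS19 (edgeR adjusted p = 8.1e-05), and differed between the clones by -1.16 on the log2 scale (edgeR adjusted p = 5.21e-05). All 5 medians stand beside all-gene medians of -0.03 in CS16 and 0.00 in CS19, and nothing particular to a list is read from them. Without WT-2 the medians were 3.97 and 4.69 for the SOX2 list, 1.12 and 0.91 for the cartilage list, -1.72 and -1.55 for the SOX4 and SOX11 list, -0.78 and -0.85 for the endothelial list, and 2.06 and 1.16 for the glial and neural crest list.

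Some other genes had profiles close to those of *SOX2*, *SOX4* and *SOX9*. Likeness was the root mean square difference of centred log2 CPM over the 9 libraries, among 17122 genes. A prior count of 2 was added before the log, which draws values near the floor together. For *SOX2* the nearest were *MYO1D*, *HEY2* and *CACNA1C*, at 0.229, 0.255 and 0.260. In WT *SOX2* averaged 0.363 CPM, *HEY2* 0.0519 and *CACNA1C* 0.158. The part of the prior count in their likeness was not tested. For *SOX4* they were *PGAP2*, *ENTPD7* and *ZNF778*, at 0.0714, 0.0910 and 0.102. For *SOX9* they were *TRIM8*, *MOB3A* and *RPH3AL*, at 0.149, 0.198 and 0.205. The libraries share their groups and the large difference between WT and the clones, so such likeness is a description.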

How the data were processed

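RNA-seq was analysed from 9 libraries, 3 each of WT, CS16 and CS19, grouped by their labels. The deposited counts were whole numbers of read pairs per gene, not normalized. The authors depleted ribosomal RNA, made stranded libraries, used Trimmomatic 0.36 for trimming and STAR 2.7.2b in 2 passes for alignment to GRCh38, and counted with featureCounts 2.0.0 (both mates aligned, no chimeric pairs, mapping quality of at least 30, gencode 38, strand not used). Reads had no molecular identifiers, so intervals cover counting error only.

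After a filter on low counts (filterByExpr) and TMM normalization, each pair of groups was fitted alone with edgeR's quasi-likelihood test (edgeR 4.0.16, limma 3.58.1, R 4.3.3), adjusted over all genes tested. DESeq2 1.42.0 was an alternative. The SE was taken from the log2 fold change and the F statistic. CPM used TMM factors from all 9 libraries, and exon lengths were those given with the deposited counts (gencode 38). The code was tested on simulated data. Summaries used scipy 1.17.1, pandas 2.3.3 and numpy 2.4.6, and plots matplotlib 3.10.9, under Python 3.11.15.

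The members and lists were chosen with earlier results of these data known. Named genes were all members, the other SOX genes except *SRY*, at most 4 called genes a list in order of fold, the 3 genes most like *SOX2*, *SOX4* and *SOX9*, *SNAI1*, and genes overlapping a member's exons. Among the list genes, those printed are a subset, and *SOX2-OT*, *SOX9-AS1*, *SOX1-OT*, *SOX5-AS1*, *SOX21-AS1* and the motifs were chosen after seeing the data, as were the marker genes singled out. Promoter windows were at hand for 6 members, and *SOX8*, *SOX9*, *SOX11* and *SOX18* have none here. Alternatives were DESeq2, other normalizations and filters, a shared fit of the 3 groups, the replicate number as a block, and leaving out each library.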

Additional observations from a re-analysis of the deposited data

Results flagged for a closer look

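The clones differed in *SOX5* by 0.69 on the log2 scale (CS16 minus CS19) and in *SOX9* by -0.57, by edgeR's test of the difference itself. These are the only members whose difference between the clones was called, and both calls were lost when the WT libraries shared the fit.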

How the results depend on the processing

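Of 108 recomputed log2 fold changes of members in each comparison, 107 kept their direction and side of the threshold for CS16 and for CS19 against WT, the exception in each being *SOX12*, called without WT-2, and 103 did so for CS16 against CS19. Against WT the direction of *SOX5*, *SOX8* and *SOX18*, with at most 3 counts in a WT library, was fixed in advance for every alternative. All 120 recomputed levels moved by at most 1 SD. Leaving out 1 of 3 libraries cannot move a mean by 1 SD of those libraries, so for that alternative the outcome was fixed in advance. Leaving out 1 library gave *SOX12* a range of 0.28 to 2.03 in CS16 and 0.01 to 1.79 in CS19. Between the clones, leaving out a library gave 1 to 2 members higher. The shared fit of the 3 groups called 0 members higher and 0 lower between the clones, and 318 genes higher and 336 lower. With no filter on low counts, 7513 genes passed the fold limit in CS19 against WT and 352 between the clones, and 2 members were higher between the clones, the other being *SOX12* (0.26, edgeR adjusted p = 0.0407). Without WT-2, a choice made after seeing the data, 36.4% of all genes were higher in each comparison, and 36.3% and 34.8% were lower. Of 4 tested targets of SOX4 and SOX11, 1 was then higher in each clone, with 3 lower in CS16 and 2 in CS19. Of 10 tested endothelial genes, 4 were higher in CS16 and 3 in CS19, with 6 lower in each. In CS16 the SOX2 list had 4 higher and 3 lower, the cartilage list 4 and 3, and the glial and neural crest list 5 and 3. In CS19 the cartilage list had 5 higher and 3 lower. The replicate numbers are shared across groups, and the deviations of same-numbered libraries from their group means correlated at -0.206 to 0.190. With 3 libraries a group and WT-2 apart from the others, such values cannot show whether same-numbered libraries share a batch. With the replicate block, 1703 genes were higher and 1476 lower between the clones, and it changed no call of a member. The cause of these changes was not tested. Depth limits *SOX2*, *SOX5*, *SOX8* and *SOX18* in WT, at 12 counts or fewer.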

Other observations

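Some noncoding genes beside SOX genes had counts in 1 or both clones. *SOX1-OT* had 9, 10 and 13 counts in CS16 and 0 in all WT and CS19 libraries, while *SOX1* itself had 1 count in all. *SOX21-AS1*, beside *SOX21*, had 0, 3 and 0 counts in WT, 67, 80 and 76 in CS16 and 275, 301 and 436 in CS19, and the clones differed in it by -1.99 on the log2 scale (edgeR adjusted p = 2.14e-07). *SOX5-AS1* had 0 counts in WT and 4 to 13 in each clone library. These genes were chosen after their values were seen, and the counting did not use strand.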
